A study of Mus musculus with 6 samples.

Results

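NF-kB signalling genes were examined in monocytic myeloid-derived suppressor cells (M-MDSCs), the monocyte-like subset of the immature myeloid cells that restrain T cells. The set held 41 named genes of 34745 in the deposited table: NF-kB subunits, their inhibitors, the kinases, receptors and adaptors of the pathway, and common target genes. They were chosen by name, with earlier results of these data known, and CC chemokines and interleukin 1 genes were left out. RNA was sequenced from M-MDSCs of mTOR WT and mTOR knock-out mice, both of strain C57BL/6, with 3 libraries per group. According to the methods, the knock-out (Lyz-mTOR) mice carried floxed mTOR alleles and Lyz-Cre, which is active in myeloid cells, while WT mice were purchased C57BL/6 animals that are not said to be littermates or to carry Cre. The methods describe MDSCs made by culture of bone marrow cells with GM-CSF and IL-6, and sorting by flow cytometry. The paper's discussion calls the sequenced M-MDSCs induced, while its RNA sequencing methods do not name the culture. The labels call the sorted cells fresh, and no source used here gives the age of the animals. The methods give n = 3 for the mice, without tying each library to an animal, and p-values measure the spread between these libraries.

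NF-kB is a family of transcription factors that wait in the cytoplasm, bound by inhibitor proteins of the IkB family. Receptors for microbial products and for tumor necrosis factor activate the IKK kinase complex, which marks IkB proteins for destruction and lets NF-kB enter the nucleus. Several of its own targets are inhibitors, among them IkB alpha and A20, so the pathway limits itself. In myeloid cells it drives the transcription of inflammatory cytokines and of chemokines that attract neutrophils.

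Total counts were 12317507 to 12903191 reads in the libraries labelled mTOR-/- and 14066578 to 14768126 in the WT libraries. Levels are given as CPM, read counts normalized to library size with edgeR's TMM factors, and changes as mTOR-/- over WT. A gene passed the test at an adjusted p under 0.05 in edgeR's quasi-likelihood F test (Benjamini-Hochberg adjustment over 12537 tested genes). DEGs also had a fold change of at least 2. Mtor itself, the targeted gene, was at 72.0, 75.9 and 69.5 CPM in the mTOR-/- libraries and at 69.7, 59.8 and 66.2 CPM in the WT libraries. The groups overlapped in this whole-gene count (log2 fold change 0.15, standard error 0.11, edgeR adjusted p = 0.442), so mTOR-/- stands here for the libraries labelled so. A whole-gene count cannot show whether some exons were lost, and exons were not counted singly. The paper reports that mTOR depletion in MDSCs was verified, in a supplementary figure. Pearson correlations over the tested genes (log2 CPM) were 0.952 and 0.955 between mTOR-/- replicate 3 and the other mTOR-/- libraries. They were 0.973 between mTOR-/- replicates 1 and 2 and 0.978 to 0.981 between WT libraries. With the WT libraries, mTOR-/- replicates 1 and 2 had 0.9569 to 0.9665, above their values with mTOR-/- replicate 3. That replicate had 0.9344 to 0.9412 with the WT libraries. Of the monocyte markers, Csf1r, Cd14 and Itgam were present in every library, while Cx3cr1 was at most at 0.273 CPM. Of the markers of T cells and NK cells, Cd3e, Cd4, Cd8a, Ncr1 and Gzma had 0 counts in all 6 libraries, Cd3d and Cd3g were at most at 0.570 CPM, and Lck was at 1.68 to 3.32 CPM in the mTOR-/- and 3.56 to 3.98 CPM in the WT libraries. Klrb1c was at 0.499 to 0.751 CPM in the WT libraries and had 0 counts in the mTOR-/- libraries. Granulocyte markers were present as well, at 2381 to 2706 summed CPM in the mTOR-/- libraries and 2122 to 2451 in the WT libraries over 10 genes. Most of that sum came from Mmp8, at 1395 to 1798 CPM in the mTOR-/- and 1078 to 1321 CPM in the WT libraries. Single granulocyte markers differed in both directions and are given with the other markers below. No sequencing batch is given in the sources used here.

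In mTOR-/- M-MDSCs 5 genes of the set rose and none fell by the test. Nod1, Nod2 and Tnip3 were DEGs, and Nfkbia and Nfkbiz rose by less than 2-fold. Of the 41 genes, 40 were tested, and Il10 had 0 counts in every library. The 3 DEGs, all higher in mTOR-/- M-MDSCs, were 7.5% of the tested members, where 1.69% of all tested genes were DEGs (1.04% higher and 0.654% lower). The 5 genes that passed the test at any fold were 12.5%, against 4.04% of all tested genes (2.18% higher and 1.87% lower). An unadjusted p under 0.05 was reached by 15 members, or 37.5%, against 21.2% of all tested genes. Levels in the mTOR-/- libraries lay above every WT library for 16 members, or 40%, against 14.5% of all tested genes. They lay below every WT library for 2 members, or 5%, against 13.9%. In either direction, 28.4% of all tested genes had groups that did not overlap. The median log2 fold change was 0.17 over the tested members and 0.00 over all tested genes, and 32 members had a positive value. Set against the WT mean, the median member stood 0.20, 0.15 and 0.29 higher on the log2 scale in mTOR-/- replicates 1, 2 and 3. The same median lay between -0.05 and 0.04 in the WT libraries. No WT library reached the lowest mTOR-/- library. Setting each gene against its own WT mean holds the WT medians near 0, so this separation is a description and not a test. These counts depended on the libraries, since leaving out any 1 of the 6 left 1 or 2 DEGs and 2 or 3 genes past the test among the members. DESeq2's Wald test kept the same 3 DEGs and passed 11 members at any fold, while 9.12% of all tested genes passed.

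**Figure D1:**
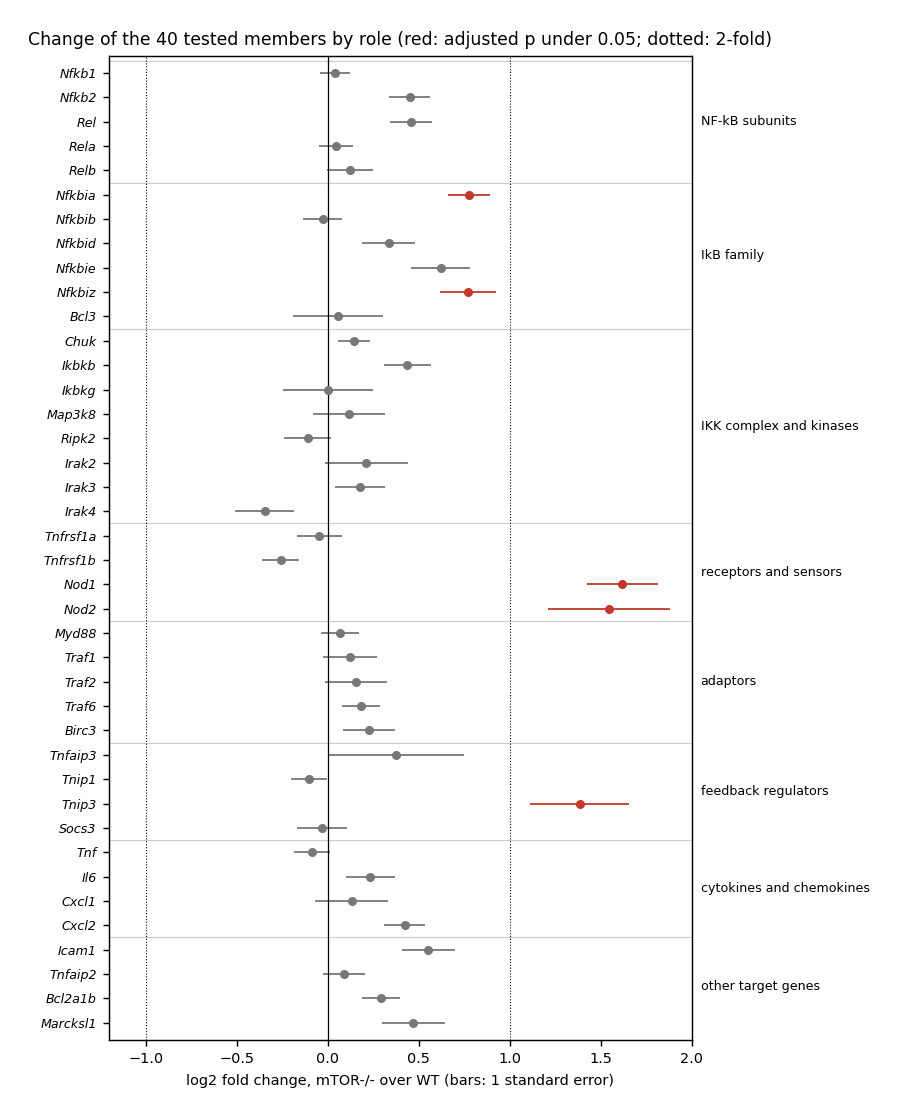
Log2 fold change (mTOR-/- over WT, horizontal axis) of the 40 tested members grouped by role, with bars of 1 standard error and dotted lines at 2-fold. Red points passed edgeR's test: Nfkbia, Nfkbiz, Nod1, Nod2 and Tnip3, all to the right of 0.

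RefSeq promoter sequences on GRCm38.p6, from 250 bases before to 50 bases after each annotated start site, were matched for 34 of the 41 genes and searched on both strands for the NF-kB consensus motif. That motif is 10 bases long: a run of G, a purine, any bases in the middle, pyrimidines and a final pair of C. It was found in 13 of the 34 genes (38.2%), against 9.55% of the 27025 genes with a promoter sequence. By window, the shares were 34.1% of 44 and 8.46% of 32851. Windows of a gene can overlap, and the match in the third Nfkb2 window is a site also counted in the second. The list was chosen to include common NF-kB target genes, so a higher share was partly built into it. A match is a sequence description and not a measured binding site. Below are the promoters of the 4 members that passed the test and had a sequence, with every match in capitals, 5′ to 3′ on the strand of the gene.
Nfkbia (chr12:55492598-55492897, reverse strand): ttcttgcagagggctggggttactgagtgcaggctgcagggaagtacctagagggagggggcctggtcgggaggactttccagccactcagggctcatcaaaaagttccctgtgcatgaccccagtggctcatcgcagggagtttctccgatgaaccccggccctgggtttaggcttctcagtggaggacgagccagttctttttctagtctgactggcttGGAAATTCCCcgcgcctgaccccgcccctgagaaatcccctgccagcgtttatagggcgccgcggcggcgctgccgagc
Tnip3 (chr6:65590148-65590447, forward strand): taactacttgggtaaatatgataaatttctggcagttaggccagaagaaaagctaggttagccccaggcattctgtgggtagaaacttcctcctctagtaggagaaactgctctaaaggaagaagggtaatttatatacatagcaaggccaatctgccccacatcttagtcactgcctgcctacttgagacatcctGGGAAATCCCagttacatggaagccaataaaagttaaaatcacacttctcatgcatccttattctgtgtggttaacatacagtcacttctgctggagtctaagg
Nod1 (chr6:54972563-54972862, reverse strand): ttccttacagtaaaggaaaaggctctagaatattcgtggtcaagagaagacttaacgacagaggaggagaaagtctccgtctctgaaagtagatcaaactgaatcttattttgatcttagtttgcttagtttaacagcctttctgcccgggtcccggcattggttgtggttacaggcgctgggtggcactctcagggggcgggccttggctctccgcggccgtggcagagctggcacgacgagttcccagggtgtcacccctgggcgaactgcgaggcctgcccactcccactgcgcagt
Nod2 (chr8:88647097-88647396, forward strand): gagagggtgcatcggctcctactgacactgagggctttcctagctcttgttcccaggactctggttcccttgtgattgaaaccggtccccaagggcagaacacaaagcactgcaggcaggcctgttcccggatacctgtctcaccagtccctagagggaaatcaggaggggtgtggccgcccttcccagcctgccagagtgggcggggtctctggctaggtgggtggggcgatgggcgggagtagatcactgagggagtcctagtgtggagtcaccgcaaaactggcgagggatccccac
The Nfkbia match began 29 bases before the start site and the Tnip3 match 54 bases before it. The Nod1 window shown, its other listed window and the Nod2 window held no match to these letters. Matches in the chemokine promoters were alike, since GGGAATTTCC began 97 bases before the start of Cxcl2 and 71 bases before that of Cxcl1. The Il6 window held GGGATTTTCC at 44 bases before its start. In the subunit genes, the first Nfkb2 window held GGGAATTCCC at 39 bases before its start and the Rel window GGGAAATCCC at 92 bases before its start.

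**Figure D2:**
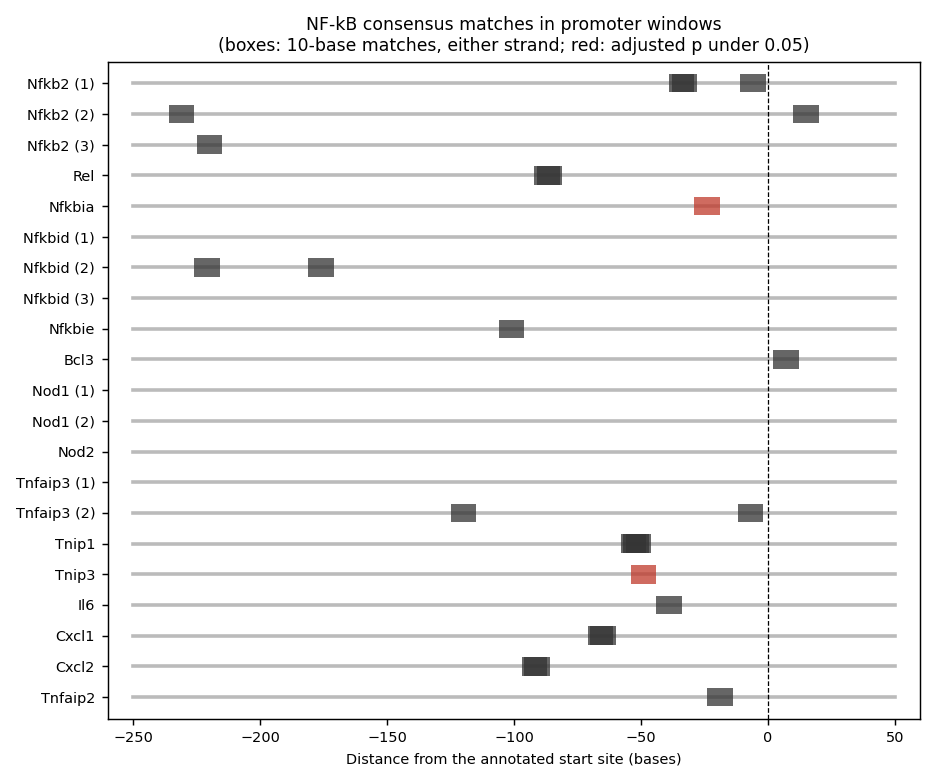
Positions of NF-kB consensus matches (boxes) in the promoter windows of the 13 genes that held one, with Nod1 and Nod2 for comparison. The horizontal axis is the distance from the annotated start site in bases, numbers in brackets mark separate windows of a gene, and red boxes belong to Nfkbia and Tnip3, which passed edgeR's test. Apart from 1 box of the second Nfkb2 window and the Bcl3 box, the boxes lie upstream of the start site.

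Nod1 and Nod2, cytoplasmic sensors of bacterial cell wall peptides that signal to NF-kB through the kinase Ripk2, had the largest increases of the set. Nod1 (ENSMUSG00000038058, chromosome 6, 54923949 to 54972612) was at 22.9, 19.4 and 28.6 CPM in the mTOR-/- libraries and at 6.89, 8.20 and 7.98 CPM in the WT libraries. The groups did not overlap, and the lowest mTOR-/- library stood well above the highest WT library. Its mean was 23.6 ± 4.66 CPM (SD, n = 3) in mTOR-/- M-MDSCs and 7.69 ± 0.697 CPM (SD, n = 3) in WT M-MDSCs, a 3.07-fold rise (log2 fold change 1.62, standard error 0.20, edgeR adjusted p = 0.00287). It passed the test in all 6 fits that each left out a library, with log2 fold changes of 1.45 to 1.73. Nod2 (ENSMUSG00000055994, chromosome 8, 88647315 to 88688474) was at 12.1, 9.88 and 10.8 CPM in the mTOR-/- libraries. It was at 1.99, 5.12 and 4.06 CPM in the WT libraries, of which replicate 1 was the lowest, and here too the groups did not overlap. The rise was 2.92-fold (log2 fold change 1.55, standard error 0.33, edgeR adjusted p = 0.0362). The call of Nod2 rested on each of the 6 libraries, as leaving out any of them raised the edgeR adjusted p to between 0.0553 and 0.13 (log2 fold changes 1.24 to 1.84).

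Neither gene of a receptor for tumor necrosis factor passed the test. Tnfrsf1b, which encodes TNF receptor 2, was at 256, 203 and 233 CPM in the mTOR-/- libraries and at 275, 267 and 286 CPM in the WT libraries. Every mTOR-/- library lay below every WT library, but the difference did not pass the test (log2 fold change -0.26, standard error 0.10, edgeR adjusted p = 0.191). Tnfrsf1a, the gene of TNF receptor 1, had a log2 fold change of -0.05 (standard error 0.12) with overlapping groups.

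Among the genes of the IkB family, Nfkbia and Nfkbiz rose. Nfkbia (ENSMUSG00000021025, chromosome 12, 55489411 to 55492647), whose promoter is printed above, encodes IkB alpha, the inhibitor that is degraded and resynthesized in each round of activation. It was at 231, 258 and 299 CPM in the mTOR-/- libraries and at 141, 156 and 162 CPM in the WT libraries, with no overlap. The rise was 1.71-fold (log2 fold change 0.78, standard error 0.11, edgeR adjusted p = 0.00692), and it passed the test in all 6 fits with a library left out (log2 fold changes 0.67 to 0.86). Nfkbiz (ENSMUSG00000035356, chromosome 16, 55811375 to 55838899) encodes IkB zeta, a nuclear member of the family that helps to switch on secondary target genes. It was at 283, 305 and 363 CPM in the mTOR-/- libraries and at 185, 223 and 148 CPM in the WT libraries. These groups did not overlap either, although the WT libraries were spread widely. The rise was 1.71-fold (log2 fold change 0.77, standard error 0.15, edgeR adjusted p = 0.027). Nfkbiz passed the test without WT replicate 2 alone. Without mTOR-/- replicate 1, 2 or 3 the edgeR adjusted p was 0.0541, 0.0524 or 0.0592, and without WT replicate 1 or 3 it was 0.111 or 0.0981.

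Nfkbie and Nfkbid, which encode IkB epsilon and the nuclear protein IkB-NS, were higher in every mTOR-/- library than in any WT library, and neither passed the test. Nfkbie was at 20.4, 18.7 and 18.7 CPM against 14.0, 11.2 and 12.3 CPM in the WT libraries (log2 fold change 0.62, standard error 0.16, edgeR adjusted p = 0.0677). For Nfkbid the log2 fold change was 0.34 (standard error 0.15, edgeR adjusted p = 0.23). Nfkbib (IkB beta) and Bcl3, a nuclear IkB protein that acts with p50 and p52 dimers, had overlapping groups and log2 fold changes of -0.03 and 0.06. The 6 IkB family genes, which are not all inhibitors, thus split into 3 pairs. These were a pair that rose, a pair with separate groups short of the threshold and a pair with overlapping groups.

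Of the 5 subunit genes of NF-kB, none passed the test, and Rel and Nfkb2 stood apart from the others. Rel, the gene of c-Rel, was at 88.5, 92.9 and 104 CPM in the mTOR-/- libraries and at 65.4, 65.4 and 77.3 CPM in the WT libraries. Nfkb2, which encodes p100 and its processed form p52 of the non-canonical branch, was at 63.5, 74.7 and 67.0 CPM against 46.8, 50.7 and 52.7 CPM. Neither gene overlapped between groups. Their log2 fold changes were 0.46 (Rel, standard error 0.11) and 0.45 (Nfkb2, standard error 0.11), each with an edgeR adjusted p of 0.0598, and both passed DESeq2's Wald test (adjusted p = 0.014 for Rel and 0.0171 for Nfkb2). Nfkb1, the gene of p105 and p50 and the subunit gene with the most reads, was at 195 to 210 CPM in mTOR-/- and 193 to 200 CPM in WT M-MDSCs. Rela, which encodes p65, was at 93.1 to 95.9 CPM and 88.5 to 98.8 CPM. Both overlapped between groups, with log2 fold changes of 0.04 (standard error 0.08) for Nfkb1 and 0.05 (standard error 0.09) for Rela. Relb, the partner of p52, had a log2 fold change of 0.12 (standard error 0.12).

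**Figure D3:**
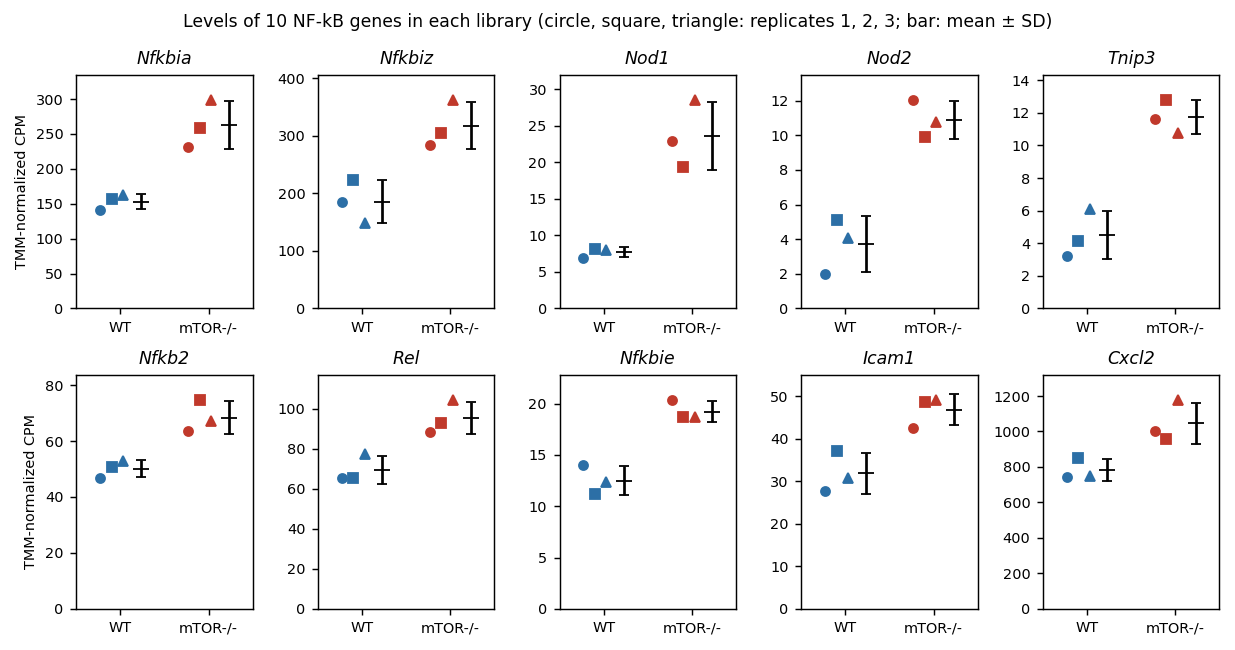
TMM-normalized CPM (vertical axes, starting at 0) of 10 members in each library, WT in blue and mTOR-/- in red, with symbols for replicates 1 to 3 and bars for the mean ± SD of 3 libraries. In each of the 10 panels the mTOR-/- libraries lie above the WT libraries, and Nod1, Nod2 and Tnip3 show the widest gaps. All 10 come from the 16 members with that separation. Of the 40 tested members, 22 overlapped between groups and 2 lay below WT.

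None of the 8 genes of the IKK complex and of the signalling kinases passed the test. Ikbkb, the gene of the catalytic subunit IKK beta, had the largest difference, at 172, 162 and 221 CPM in the mTOR-/- libraries and 130, 148 and 132 CPM in the WT libraries. Its groups did not overlap (log2 fold change 0.44, standard error 0.13, edgeR adjusted p = 0.0927). Chuk, which encodes IKK alpha, was also higher in each mTOR-/- library, by a log2 fold change of 0.15 (standard error 0.09). Ikbkg, the gene of the scaffold subunit NEMO and the most highly counted of these genes, varied more between libraries than between groups. It was at 130, 130 and 244 CPM in the mTOR-/- libraries and at 136, 205 and 162 CPM in the WT libraries, so that mTOR-/- replicate 3 was the highest of all 6 (log2 fold change 0.00, standard error 0.25). Some exon sequence of Ikbkg overlaps G6pdx on the opposite strand, 5.15% of its merged exon length, and the strand setting of the counting is not given in the sources used here. Irak4, the kinase next to Myd88 in Toll-like receptor signalling, was the single kinase gene whose mTOR-/- libraries all lay below WT, at 29.3, 34.1 and 23.4 CPM against 40.1, 34.7 and 35.7 CPM. The gap between mTOR-/- replicate 2 and WT replicate 2 was small (log2 fold change -0.35, standard error 0.16, edgeR adjusted p = 0.256). It also shares exon sequence with Twf1 on the opposite strand. Irak2, Irak3, Map3k8 and Ripk2, the kinase that carries the signal of Nod1 and Nod2, had overlapping groups and log2 fold changes from -0.11 (Ripk2) to 0.21 (Irak2).

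The 5 adaptor genes, which link receptors to the kinases, also held no gene past the test. Their log2 fold changes were all positive and small, from 0.07 (Myd88) to 0.23 (Birc3). Birc3, a ubiquitin ligase gene that is both a component and a target of the pathway, was at 117, 81.9 and 113 CPM in the mTOR-/- libraries and 82.7, 87.8 and 96.2 CPM in the WT libraries. Its groups overlapped because mTOR-/- replicate 2 was the lowest of the 6 libraries (standard error 0.14, edgeR adjusted p = 0.396). Traf6, which passes the signal from Myd88 to the IKK complex, was the one adaptor gene with separate groups (log2 fold change 0.18, standard error 0.10, edgeR adjusted p = 0.348). Traf1 and Traf2 had values of 0.12 and 0.16.

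Of the genes listed as feedback regulators, Tnip3 was the one that rose by the test. It encodes ABIN-3, a protein related to the partners of A20, and its effect on NF-kB in these cells was not measured. Tnip3 (ENSMUSG00000044162, chromosome 6, 65590398 to 65634040) was at 11.7, 12.8 and 10.8 CPM in the mTOR-/- libraries and at 3.20, 4.17 and 6.13 CPM in the WT libraries. The groups did not overlap, and the rise was 2.61-fold (log2 fold change 1.38, standard error 0.27, edgeR adjusted p = 0.0259). It passed the test without mTOR-/- replicate 3 (adjusted p = 0.0356) and without WT replicate 3 (adjusted p = 0.0316, both edgeR). Without mTOR-/- replicate 1 or 2 the edgeR adjusted p was 0.0739 or 0.0609, and without WT replicate 1 or 2 it was 0.0993 or 0.0989. Tnip1, the gene of ABIN-1, had a log2 fold change of -0.10 (standard error 0.10) with overlapping groups.

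Tnfaip3, the gene of A20, had the widest spread within groups of the feedback regulators. It was at 48.8, 94.3 and 121 CPM in the mTOR-/- libraries and at 34.3, 83.2 and 85.8 CPM in the WT libraries. Replicate 1 was the lowest library of each group, and the groups overlapped (log2 fold change 0.38, standard error 0.37, edgeR adjusted p = 0.599). Socs3, an inhibitor of IL-6 receptor signalling, was at 79.1 to 92.0 CPM in mTOR-/- and 70.8 to 99.1 CPM in WT M-MDSCs (log2 fold change -0.03, standard error 0.14). IL-6 was part of the medium in the culture that the methods describe, and its part in the Socs3 levels was not tested.

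The cytokine genes of the set showed no change that passed the test. Tnf was at 82.3 to 94.1 CPM in mTOR-/- and 89.9 to 98.0 CPM in WT M-MDSCs, with overlapping groups (log2 fold change -0.09, standard error 0.10). Il6 was at 278, 341 and 330 CPM against 268, 314 and 224 CPM in the WT libraries (log2 fold change 0.23, standard error 0.13, edgeR adjusted p = 0.352). Il10, which encodes an anti-inflammatory cytokine, had 0 counts in all 6 libraries. At these depths 3 counts, the limit that a count of 0 allows, correspond to 0.203 to 0.244 CPM (counting error only).

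Cxcl2 and Cxcl1 encode related chemokines that attract neutrophils through the receptor Cxcr2. Cxcl2 was at 1005, 955 and 1178 CPM in the mTOR-/- libraries and at 741, 852 and 747 CPM in the WT libraries. The groups did not overlap, and the difference fell short of the threshold (log2 fold change 0.42, standard error 0.11, edgeR adjusted p = 0.0711). DESeq2's Wald test passed it (adjusted p = 0.0096). Cxcl1, whose promoter holds the same match to the NF-kB consensus, had overlapping groups and a log2 fold change of 0.13 (standard error 0.20).

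Of the other target genes, Icam1, Marcksl1 and Bcl2a1b were higher in each mTOR-/- library than in any WT library, and none passed the test. Icam1, an adhesion molecule gene, was at 42.5, 48.6 and 49.1 CPM in the mTOR-/- libraries and 27.7, 37.2 and 30.7 CPM in the WT libraries (log2 fold change 0.55, standard error 0.14, edgeR adjusted p = 0.0678). Marcksl1, a gene of the MARCKS family of actin-binding proteins, was at 27.3, 39.4 and 27.5 CPM against 23.5, 22.8 and 21.7 CPM. Its mTOR-/- replicate 2 lay above the other mTOR-/- libraries (log2 fold change 0.47, standard error 0.17, edgeR adjusted p = 0.163). Bcl2a1b, a survival gene of the Bcl2 family, had a log2 fold change of 0.29 (standard error 0.10, edgeR adjusted p = 0.149). It has near-identical copies, and 49.1% of its merged exons overlap another annotated gene on the same strand, so that its reads may be divided. Its copies Bcl2a1d and Bcl2a1a had log2 fold changes of 0.20 and 0.07. Tnfaip2 was the target gene with the most reads in this list, at 395 to 526 CPM in mTOR-/- and 412 to 438 CPM in WT M-MDSCs, with overlap (log2 fold change 0.09, standard error 0.11).

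Levels of different genes were compared only after division by the length of their merged exons in GENCODE M21, as CPM per kilobase averaged over the 6 libraries. Cxcl2 had the highest level, at 442 CPM per kilobase, followed by Bcl2a1b at 174, Nfkbia at 129 and Il6 at 121. The ranges over libraries of Nfkbia (87.4 to 186) and Il6 (92.4 to 140) overlapped. At the other end lay the 3 DEGs. Tnip3 was lowest at 0.744 CPM per kilobase, followed by Nod2 at 1.46 and Nod1 at 3.08, and the next tested member was Nfkbie at 5.21. By mean CPM per kilobase, the largest fold changes of the set were therefore those of its 3 least abundant tested genes. Nfkbia and Nfkbiz (50.1 CPM per kilobase) rose at much higher levels. The ranges of Tnip3 (0.293 to 1.17) and Nod2 (0.397 to 2.41) overlapped. Those of Nod1 (1.36 to 5.63) and Nfkbie (3.68 to 6.69) overlapped as well, so the order is that of the means. Tnip3, Nfkbie and Nfkbia are among the members whose deposited span differs from that in GENCODE M21. The exon lengths used for these genes may therefore differ from those behind the counts.

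**Figure D4:**
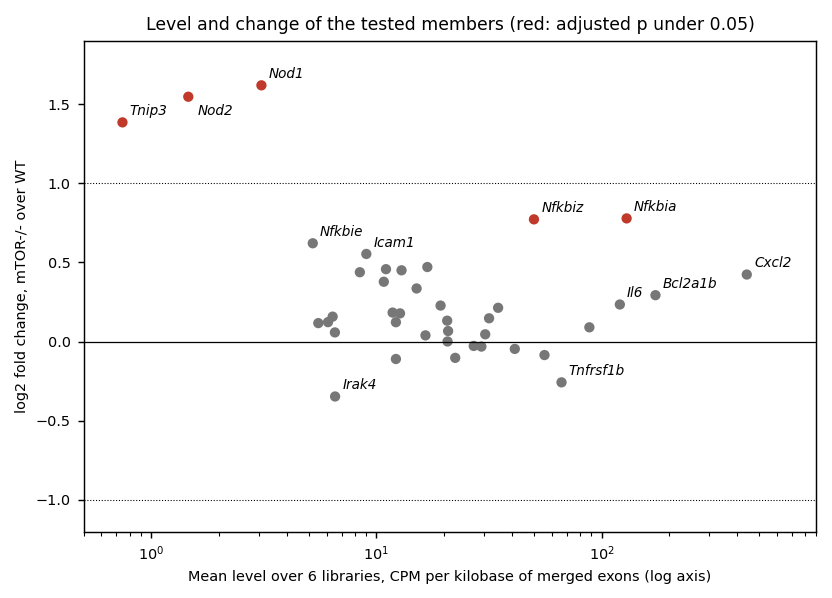
Mean level over 6 libraries (CPM per kilobase of merged exons, horizontal log axis) against the log2 fold change (mTOR-/- over WT, vertical axis) of the 40 tested members, with dotted lines at 2-fold. Red points passed edgeR's test: Tnip3, Nod2 and Nod1 lie at the lowest levels and above 2-fold, and Nfkbiz and Nfkbia at higher levels and below it.

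A wider list of 84 further genes of the pathway, ordered by role, was examined beside the members. Of these, 80 were tested, 4 rose and 1 fell by the test, and the median log2 fold change was 0.07. The share past the test, 6.25%, stood beside 4.04% of all tested genes. Map3k14, the gene of NIK, the kinase that activates the non-canonical branch through p100, was at 40.1, 38.9 and 46.6 CPM in the mTOR-/- libraries and 18.2, 23.6 and 24.7 CPM in the WT libraries. Its groups did not overlap (log2 fold change 0.92, standard error 0.16, edgeR adjusted p = 0.015). The call of Map3k14 was lost without WT replicate 1 or 2 (edgeR adjusted p = 0.0589 or 0.0553). Ikbke, a kinase gene related to the IKK genes, was at 238, 172 and 305 CPM against 114, 151 and 134 CPM, also without overlap (log2 fold change 0.84, standard error 0.19, edgeR adjusted p = 0.0444). It passed the test without mTOR-/- replicate 2, and without any other single library the edgeR adjusted p was 0.0771 to 0.17. Card9, an adaptor gene of C-type lectin receptor signalling, came next among the 30 adaptors, kinases and ubiquitin enzymes (log2 fold change 0.69, standard error 0.18, edgeR adjusted p = 0.0634).

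Further target genes moved in both directions. Cxcl10, a chemokine gene also induced by interferons, rose from low levels, at 4.97, 5.87 and 8.80 CPM in the mTOR-/- libraries and 1.21, 1.64 and 0.427 CPM in the WT libraries. Its groups did not overlap (log2 fold change 2.57, standard error 0.50, edgeR adjusted p = 0.0243). Without mTOR-/- replicate 3 or any WT library its edgeR adjusted p was 0.0513 to 0.0926. Ptgs2, the gene of cyclooxygenase-2, was at 108, 97.0 and 127 CPM against 71.8, 84.6 and 69.6 CPM (log2 fold change 0.56, standard error 0.13, edgeR adjusted p = 0.0464). Ptgs2 passed the test without mTOR-/- replicate 2, and without any other single library the edgeR adjusted p was 0.0729 to 0.2. Gadd45b, a stress response gene induced by NF-kB, fell to 47.3, 52.1 and 35.3 CPM from 103, 98.6 and 109 CPM in the WT libraries. The groups were far apart, the log2 fold change was -1.21 (standard error 0.15, edgeR adjusted p = 0.00287), and the call held in all 6 fits with a library left out.

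No gene passed the test among the other receptors or the other negative regulators of the pathway. Tnfrsf11a, the gene of RANK, had a log2 fold change of 1.00 (standard error 0.33, edgeR adjusted p = 0.134) at 4.51 to 5.56 CPM in mTOR-/- and 2.06 to 2.71 CPM in WT M-MDSCs. Ltbr (lymphotoxin beta receptor) and Cd40 had log2 fold changes of -0.32 and 1.25, and the groups of Cd40 overlapped. Among 15 negative regulators, Otulin, Tnip2 and Tollip had the smallest p-values, with log2 fold changes of -0.32, 0.48 and -0.18 (edgeR adjusted p = 0.2, 0.207 and 0.309).

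Markers of several cell types differed between the same libraries. The 9 dendritic cell markers summed to 352 to 442 CPM in mTOR-/- and 108 to 220 CPM in WT M-MDSCs, with Ccr7 and H2-Ab1 higher by the test. Most of that sum came from Itgax, H2-Ab1 and Ccr7. Flt3, Clec9a and Zbtb46 overlapped between groups (log2 fold changes -0.46, -0.39 and 0.81), Xcr1 and Cd209a were at most at 0.535 CPM, and Siglech had 0 counts in every library. Those of mast cells and basophils (5 genes) summed to 218 to 264 CPM against 834 to 996 CPM, with Cpa3, Kit and Mcpt8 lower by the test. Eosinophil markers (3 genes) summed to 39.5 to 64.1 CPM against 93.4 to 110 CPM. The 9 monocyte markers summed to 2289 to 2795 CPM against 3781 to 5426 CPM, with Cd14, Csf1r and F13a1 higher and Lyz2 and Ly6c2 lower by the test. Lyz2, a lysozyme gene (Lyz-Cre is driven by a lysozyme promoter), was at 903 to 1196 CPM against 2327 to 3910 CPM. To genotype Lyz-Cre mice, the methods list separate primers for a wild-type and a mutant Lyz allele. The part of that allele in the Lyz2 difference was not tested. Without Lyz2, a choice made after its values were seen, the other 8 monocyte markers summed to 1386 to 1822 CPM against 1454 to 1619 CPM, and the groups overlapped. Itgam, at 647 to 1028 CPM against 870 to 961 CPM, was the largest part of that sum. Since Cd14, Csf1r and F13a1 were higher and Ly6c2 lower, the sum does not show that monocyte markers were alike. Those of macrophages (8 genes) summed to 404 to 541 CPM against 567 to 650 CPM with none past the test, and those of stromal cells (4 genes) to 153 to 197 CPM against 239 to 261 CPM with Pecam1 lower. Of the granulocyte markers, Ly6g and S100a8 were higher and Ngp and Ltf lower by the test. Ly6g was at 14.1, 10.7 and 15.1 CPM in the mTOR-/- libraries against 0.853, 2.39 and 5.06 CPM. Ltf was at 3.75, 3.63 and 5.81 CPM against 17.8, 17.3 and 19.3 CPM. Ly6c2, of the monocyte list, was at 72.6, 84.9 and 104 CPM against 182, 116 and 226 CPM. The paper defines M-MDSCs as negative for Ly6G and high in Ly6C. The part of these differences in the changes of Nod1, Nod2, Tnip3, Nfkbia and Nfkbiz was not tested, and in bulk RNA fewer cells of a type and less RNA per cell cannot be told apart.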

How the data were processed

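RNA of M-MDSCs was measured in 6 libraries, grouped by genotype from the titles. The deposited counts of reads per gene were made by the authors without normalization, on mm10 with Bowtie2 and HTSeq by the methods, while the submitters' processing notes name HISAT2 2.0.4, StringTie 1.3.0 and the builds GRCm38.p4 and mm9. Coordinates are those of the files, and 36 of the 41 members had the same span in GENCODE M21 (GRCm38). Strand setting and annotation release are not given in the sources used here. The FPKM values the authors deposited divide the same counts by library total and gene length. For 67.3% of genes with over 100 counts in every library that length was within 1% of the sum of all distinct exons in GENCODE M21, overlaps counted repeatedly, so merged exon lengths were used here instead. The deposited files repeat these values in 24 columns that were not used, and the authors' group means of FPKM, fold changes, p and q values were not used.

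Tests on these counts used R 4.3.3, edgeR 4.0.16 (filterByExpr with minimum count 10 and total 15, TMM, quasi-likelihood F test) and DESeq2 1.42.0, after the edgeR script was tested on simulated data. The 12537 genes kept gave the Benjamini-Hochberg adjustment. The standard error is the absolute log2 fold change over the square root of F. The common biological coefficient of variation was 19%. Log2 CPM used a prior count of 2, and library medians an offset of 0.25 CPM. Total counts of 12317507 to 14768126 reads per library set the counting error, and the floor for a count of 0 covers that error only. Standard errors come from the fit and include the spread between libraries. Alternatives were DESeq2, RLE and upper-quartile factors, no filter, at least 10 counts in every library, each library left out, and the replicate block. Genes given in full were those past the test, the member with the largest change and the one with the highest mean count in each role list, and Mtor, with the 3 smallest p-values per list among further pathway genes. Bcl2a1a and Bcl2a1d, and the marker genes given singly, were named after their values were seen. The members and lists were chosen with earlier results of these data known.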

Additional observations from a re-analysis of the deposited data

How the results depend on the processing

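Changing the processing mainly changed how many members passed the threshold. Members past the test at any fold numbered 5 in the reported analysis and 11 with DESeq2's Wald test, where 1144 of all tested genes passed against 507. With 1 library left out, members past the test numbered 2 to 3, DEGs among the members 1 to 2 and DEGs among the further pathway genes 1 to 4, against 5, 3 and 2. A minimum of 10 counts in every library removed Cxcl10 from the tested genes and left 1 DEG among the further pathway genes. The median log2 fold change of the members lay between 0.15 and 0.21 in all 12 alternatives. Same-numbered libraries did not deviate together (correlations of -0.08, -0.03 and -0.06), so the numbers were not taken to pair them. With the replicate block, 1 member was a DEG, 2 members passed the test (Nfkbia and Nod1) and 1 further pathway gene was a DEG, while the edgeR adjusted p of Nfkbiz, Nod2 and Tnip3 became 0.0524, 0.0632 and 0.0529 and that of Cxcl10, Ikbke and Ptgs2 became 0.0590, 0.0689 and 0.111.

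Of 635 log2 fold changes recomputed for 53 genes, 567 had the same direction and side of the threshold, 37 no longer passed, 9 newly passed and 22 changed sign. All sign changes were in genes that did not pass the test. Ikbkg became -0.0043 with DESeq2, -0.0042 with RLE factors, -0.018 without a filter, -0.0085 with 10 counts in every library and -0.046 with the replicate block. With a library left out, values ranged from -0.38 to 0.17 for Ikbkg, -0.13 to 0.29 for Bcl3, -0.00061 to 0.23 for Traf1, -0.00066 to 0.057 for Nfkb1, -0.10 to 0.39 for Irak2, -0.092 to 0.24 for Map3k8, -0.15 to 0.065 for Tnfrsf1a, -0.16 to 0.086 for Socs3, -0.092 to 0.29 for Cxcl1, -0.035 to 0.17 for Tnfaip2, -0.089 to 0.0037 for Nfkbib and -0.0089 to 0.25 for Traf2. The cause of these shifts was not tested. Counts of 28 to 148 reads stood behind Nod2 and 45 to 166 behind Tnip3, so their values carry more counting error than those of Nfkbia and Nfkbiz.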
